A study of Mus musculus with 21 samples.

Results

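A set of 10 genes encoding transcription factors of the B-lymphoid lineage was looked up by symbol in a table of RNA levels, and 7 of the 10 are described here among 11628 genes. The 7 were Ebf1, Pou2af1, Foxo1, Bach2, Ikzf1, Ikzf2 and Myb, while Pax5, Ikzf3 and Lef1 were not analysed here. Each of the 7 passed the filter on low values, which asked for at least 1 RPKM in at least 3 libraries. RPKM is the number of reads of a gene scaled to transcript length and to the total of mapped reads.

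The RNA came from 21 libraries of sorted mouse bone marrow, in 3 populations and 2 genotypes. Mutant mice, labelled ETV6 mt/mt, were homozygous for an Etv6 mutation written as h.P214L, and each population had 4 mutant and 3 wild-type libraries. Etv6 encodes a transcriptional repressor of the ETS family, and the study asked about inflammation and lymphoid development in these progenitors. All 3 sorts took cells without lineage markers. Haematopoietic stem cells (HSC) carried cKit, Sca1 and CD150 but not FLK2 or, as labelled, CD38. Lymphoid-primed multipotent progenitors (MPP4) carried FLK2 in addition to cKit and Sca1. The common lymphoid progenitors (CLP) carried little cKit and Sca1 and were positive for Flk2 and for what the label calls IL7. The mice were 10 or 12 weeks old. In each of the 6 groups, replicate 2 was the male library and the others were female. The mutation was carried by the whole animal, so these libraries do not separate its action inside the sorted cells from that of their surroundings.

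B cells arise from stem cells through multipotent and then common lymphoid progenitors, and a network of transcription factors fixes that course. Myb and the zinc finger factor Ikaros, encoded by Ikzf1, act early and are needed for lymphoid priming. Foxo1 and the E2A proteins then act with Ebf1, which opens B-cell chromatin and turns on genes such as Cd79a, Pou2af1 and Pax5. Bach2 represses myeloid genes in lymphoid progenitors, Pou2af1 encodes a B-cell coactivator of octamer-binding proteins, and Ikzf2 encodes Helios, an Ikaros relative best known in T cells.

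RefSeq start-site windows of build GRCm38.p6 were read for the members. They run from 250 bases before the start to 50 from it on, and 6 of the 7 members matched, with 8 windows. The 4 windows printed here belong to the members with the 4 largest increases at entry into CLP. Capitals mark the letters of 3 motifs searched on both strands: the ETS core CCGGAAG, the EBF palindrome, TCCC and GGGA set 2 bases apart, and the E-box CANNTG, none of which overlapped another in these windows. Each line is given 5′ to 3′ on the gene's plus strand.
Ebf1, chr11:44619978-44620277: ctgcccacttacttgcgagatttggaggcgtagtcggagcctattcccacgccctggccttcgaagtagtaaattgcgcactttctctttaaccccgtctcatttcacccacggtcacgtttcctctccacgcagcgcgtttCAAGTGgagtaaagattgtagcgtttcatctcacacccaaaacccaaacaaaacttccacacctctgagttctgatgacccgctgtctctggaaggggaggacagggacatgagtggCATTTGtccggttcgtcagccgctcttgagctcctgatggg
Pou2af1, chr9:51213440-51213739: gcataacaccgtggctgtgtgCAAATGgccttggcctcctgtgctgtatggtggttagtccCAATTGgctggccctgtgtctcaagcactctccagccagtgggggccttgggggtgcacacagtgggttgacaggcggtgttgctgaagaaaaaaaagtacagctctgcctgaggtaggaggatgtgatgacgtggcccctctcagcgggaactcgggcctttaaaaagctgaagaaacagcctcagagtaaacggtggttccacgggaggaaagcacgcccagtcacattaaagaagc
Foxo1, chr3:52268087-52268386: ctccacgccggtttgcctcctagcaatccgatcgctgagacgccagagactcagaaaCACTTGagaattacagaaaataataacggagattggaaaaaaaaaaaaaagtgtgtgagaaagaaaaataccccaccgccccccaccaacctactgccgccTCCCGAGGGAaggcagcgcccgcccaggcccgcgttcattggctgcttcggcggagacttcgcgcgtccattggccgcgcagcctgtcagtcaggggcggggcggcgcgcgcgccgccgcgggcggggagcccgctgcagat
Bach2, chr4:32417185-32417484: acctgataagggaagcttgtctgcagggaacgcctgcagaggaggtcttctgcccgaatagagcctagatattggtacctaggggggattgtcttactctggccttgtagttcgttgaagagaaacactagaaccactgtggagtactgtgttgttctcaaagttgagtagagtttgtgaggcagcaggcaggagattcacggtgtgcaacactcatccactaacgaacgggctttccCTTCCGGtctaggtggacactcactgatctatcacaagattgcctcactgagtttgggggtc

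The Foxo1 window held the EBF letters TCCCGAGGGA, whose first base lay at -92 from the start site, and an E-box at -193. These EBF letters stood in 0.9% of 32851 RefSeq promoter windows and in 1.0% of those of genes in the table. An ETS core was present at -12 in the Bach2 window, which belongs to a start inside the gene's annotated span. ETS cores stood in 8.9% of all windows and in 17.9% of those of genes in the table. E-boxes lay at -229 and -189 in the Pou2af1 window, and at -108 and 9 in the Ebf1 window shown. As E-boxes stood in 72.3% of all windows, they set no window apart. The other Ebf1 window and both Ikzf1 windows held none of the 3 motifs, and the Myb window had an E-box at 29. Such letters describe a window and do not show binding.

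HSC and CLP markers followed the sort gates, while the sum of the MPP4 markers was higher in CLP than in MPP4. Singly, 1 of these 5 rose into CLP and 2 fell in wild type, and 2 rose and 2 fell in mutants. These are calls by limma, which 13.1% of all genes had in wild type and 24.3% in mutants. In wild type Dntt changed by 0.91, Kit by -1.9 and Ly6a by -1.12 (log2 of RPKM + 1). The 5 MPP4 markers summed to 1209.6 to 1361.9 RPKM in mutant MPP4 and 1503.8 to 1820.9 RPKM in wild-type MPP4. In CLP they summed to 2088.6 to 2503.1 RPKM in mutants and 2220.0 to 2283.2 RPKM in wild type. The 7 HSC markers summed to 551.7 to 593.5 RPKM in mutant HSC and 565.1 to 614.0 RPKM in wild-type HSC, against 59.5 to 71.5 RPKM in mutant CLP and 55.5 to 84.1 RPKM in wild-type CLP. The 5 CLP markers, among them Il7r and Ly6d, summed to 2361.1 to 3346.2 RPKM in mutant CLP and 2829.7 to 3196.9 RPKM in wild-type CLP, against 17.4 to 29.9 RPKM in HSC of both genotypes. Libraries of a group correlated at 0.968 to 0.990 over genes. Spacing of the low values put the effective depth at an estimated 6770000 to 12810000 reads per library. The genotype was not checked against the RNA, because a single altered amino acid leaves no trace in gene-level values.

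Ebf1 lies on chromosome 11 (GRCm38.p6, 44618100 to 45008096) and encodes early B-cell factor 1, which specifies the B lineage. In HSC its level was 0.198, 0.348, 0.321 and 0.647 RPKM in mutant libraries, against 0.448, 0.423 and 0.136 RPKM in wild-type libraries. In MPP4 it was 0.289, 0.739, 0.740 and 0.260 RPKM in mutant libraries, against 0.770, 1.00 and 0.943 RPKM in wild-type libraries. CLP held 3.85, 10.4, 4.31 and 2.15 RPKM in mutant libraries, against 7.05, 13.5 and 6.14 RPKM in wild-type libraries. Ebf1 was thus under 1 RPKM in every HSC library, and every CLP library lay above every MPP4 library. An HSC library held an estimated 15.3 to 71.6 Ebf1 reads in mutants and 10.4 to 38.0 in wild type, so HSC levels rest on few reads.

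The increase of Ebf1 at entry into CLP was 1.89 ± 0.28 in mutants (log2 of RPKM + 1, SE; adjusted p = 3.35e-05) and 2.31 ± 0.32 in wild type (adjusted p = 3.95e-05). All p-values of this kind are from limma, two-sided, with Benjamini-Hochberg adjustment over 11496 genes. On the RPKM scale the ratio of the means was 10.2 in mutants and 9.82 in wild type. The step before it, MPP4 minus HSC, was 0.12 in mutants and 0.52 in wild type, and neither passed the test (adjusted p = 0.769 in mutants and 0.216 in wild type). There the ratio of the RPKM means was 1.34 in mutants, whose libraries overlapped, and 2.70 in wild type, whose libraries did not. The wild-type value passed with the compared groups alone in the fit (adjusted p = 0.0373), and with a pseudocount of 0.1 it was 1.3 (adjusted p = 0.0508). Between the genotypes, CLP averaged 5.19 ± 3.63 RPKM in mutants and 8.89 ± 4.01 RPKM in wild type (SD, n = 4 and n = 3).

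Pou2af1 on chromosome 9 (51213690 to 51240079) encodes the coactivator OCA-B. HSC held 0.104, 1.23, 0.466 and 0.331 RPKM in mutant libraries, against 0.132, 1.45 and 0 RPKM in wild-type libraries. MPP4 held 0.571, 2.11, 1.44 and 0.356 RPKM in mutant libraries, against 0.705, 0.246 and 0.758 RPKM in wild-type libraries. In CLP the level was 3.93, 13.9, 2.68 and 2.31 RPKM in mutant libraries, against 6.41, 13.3 and 3.50 RPKM in wild-type libraries. CLP libraries again lay above all MPP4 libraries of their genotype, and in both genotypes 1 CLP library stood far above the others. The log2 increase at entry into CLP was 1.45 ± 0.43 in mutants (SE; adjusted p = 0.0172) and 2.33 ± 0.50 in wild type (adjusted p = 0.00266). The mutant call was lost without mutant CLP replicate 2 (0.97, adjusted p = 0.0763), without mutant MPP4 replicate 4 (1.26, adjusted p = 0.0616) and with a pseudocount of 0.1 (2.13, adjusted p = 0.0513). MPP4 did not differ from HSC by the test in mutants (0.44, adjusted p = 0.457) or in wild type (0.14, adjusted p = 0.845).

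Foxo1 on chromosome 3 (52268337 to 52350109) encodes a forkhead factor that acts downstream of growth factor signalling and is needed for Il7r and Rag gene expression in the B lineage. HSC held 10.7, 11.6, 8.97 and 10.6 RPKM in mutant libraries, against 6.27, 9.95 and 14.3 RPKM in wild-type libraries. MPP4 held 5.16, 4.84, 4.79 and 4.40 RPKM in mutant libraries, against 3.14, 4.40 and 4.59 RPKM in wild-type libraries. CLP held 11.4, 21.2, 6.96 and 5.26 RPKM in mutant libraries, against 8.85, 21.7 and 10.1 RPKM in wild-type libraries. The gene thus had its lowest level in the middle population, a course that no other member shared.

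Foxo1 fell at the HSC to MPP4 step by 0.98 ± 0.31 in mutants (log2, SE; adjusted p = 0.0155) and by 1.09 ± 0.35 in wild type (adjusted p = 0.0188). It rose into CLP by 0.90 ± 0.31 in mutants (adjusted p = 0.0376) and by 1.44 ± 0.35 in wild type (adjusted p = 0.00869). CLP and HSC did not differ by the test in mutants (-0.08, adjusted p = 0.847) or in wild type (0.34, adjusted p = 0.442). The fall in mutants kept its call with each single library left out, while the other calls rest on single libraries. In wild type the fall was not called without HSC replicate 3 (-0.84, adjusted p = 0.107) or without MPP4 replicate 1 (-0.96, adjusted p = 0.0732), and the rise was not called without CLP replicate 2 (1.07, adjusted p = 0.0710). In mutants the rise was not called without CLP replicate 1 or 2, or without any one MPP4 library, and without CLP replicate 2 it was 0.56 (adjusted p = 0.1604). Nor was it called with the compared groups alone (adjusted p = 0.0748).

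Bach2 on chromosome 4 (32238413 to 32586109) encodes a repressor of the BTB and leucine zipper class. HSC held 2.43, 2.01, 1.10 and 1.72 RPKM in mutant libraries, against 1.32, 2.17 and 2.33 RPKM in wild-type libraries. MPP4 held 3.69, 2.25, 2.47 and 1.92 RPKM in mutant libraries, against 2.63, 3.16 and 3.43 RPKM in wild-type libraries. CLP held 7.93, 7.79, 5.61 and 6.81 RPKM in mutant libraries, against 6.04, 8.61 and 8.06 RPKM in wild-type libraries. Bach2 was thus tighter within CLP than Ebf1, Pou2af1 or Foxo1, and all CLP libraries lay above all MPP4 libraries. Its log2 increase into CLP was 1.18 ± 0.17 in mutants (SE; adjusted p = 3.38e-05) and 1.06 ± 0.20 in wild type (adjusted p = 9.36e-04). At the earlier step it was 0.35 in mutants (adjusted p = 0.125) and 0.48 in wild type (adjusted p = 0.0640). With the replicate number as a block, same-numbered libraries of a genotype were taken as paired. The mutant value of 0.35 then passed the limma test (adjusted p = 0.0272), as did the wild-type value of 0.48 (adjusted p = 0.0100). Both also passed with quantile normalization, at 0.59 in mutants (adjusted p = 0.0107) and 0.75 in wild type (adjusted p = 0.00556).

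Ikzf1 on chromosome 11 (11684962 to 11772930) encodes Ikaros and varied little within groups. HSC held 15.01, 14.2, 13.5 and 15.8 RPKM in mutant libraries, against 15.1, 15.3 and 14.3 RPKM in wild-type libraries. MPP4 held 34.4, 34.7, 34.1 and 32.8 RPKM in mutant libraries, against 40.4, 35.8 and 36.9 RPKM in wild-type libraries. CLP held 51.9, 52.2, 48.98 and 51.9 RPKM in mutant libraries, against 53.5, 52.9 and 52.3 RPKM in wild-type libraries. Ikzf1 rose at both steps in both genotypes, with no overlap between populations. Its larger increase came at the HSC to MPP4 step, with 1.17 ± 0.06 in mutants (log2, SE; adjusted p = 5.21e-12) and 1.28 ± 0.07 in wild type (adjusted p = 1.46e-11). The increase into CLP was 0.58 ± 0.06 in mutants (adjusted p = 3.69e-07) and 0.48 ± 0.07 in wild type (adjusted p = 5.19e-05).

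Ikzf2 on chromosome 1 (69531207 to 69687351) ran the other way. HSC held 4.62, 4.51, 7.14 and 6.77 RPKM in mutant libraries, against 6.06, 4.80 and 6.60 RPKM in wild-type libraries. MPP4 held 4.78, 4.60, 6.15 and 4.94 RPKM in mutant libraries, against 4.24, 4.01 and 3.21 RPKM in wild-type libraries. CLP held 0.670, 0.883, 1.01 and 2.14 RPKM in mutant libraries, against 0.742, 0.668 and 1.74 RPKM in wild-type libraries. Every CLP library lay below every MPP4 library. Ikzf2 fell at that step by 1.53 ± 0.20 in mutants (log2, SE; adjusted p = 5.62e-06) and by 1.27 ± 0.23 in wild type (adjusted p = 5.19e-04). The HSC to MPP4 step was -0.13 in mutants (adjusted p = 0.647) and -0.50 in wild type (adjusted p = 0.0872). The wild-type value passed with the compared groups alone (adjusted p = 0.0412), with sex and age terms (adjusted p = 0.0449) and with the replicate block (adjusted p = 0.0489).

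Myb on chromosome 10 (21124930 to 21160984), which encodes a factor needed by many blood progenitors, was the most abundant member in every library. HSC held 92.0, 108, 99.0 and 99.2 RPKM in mutant libraries, against 98.7, 107 and 96.0 RPKM in wild-type libraries. MPP4 held 112, 112, 116 and 117 RPKM in mutant libraries, against 111, 111 and 129 RPKM in wild-type libraries. CLP held 181, 181, 166 and 163 RPKM in mutant libraries, against 188, 175 and 180 RPKM in wild-type libraries. Populations did not overlap at either step. Myb rose into MPP4 by 0.20 ± 0.07 in mutants (log2, SE; adjusted p = 0.0201) and by 0.22 ± 0.08 in wild type (adjusted p = 0.0261). Its rise into CLP was larger, 0.59 ± 0.07 in mutants (adjusted p = 9.67e-07) and 0.62 ± 0.08 in wild type (adjusted p = 7.70e-06). The small earlier rise lost its call in wild type without HSC replicate 1 (0.21), HSC replicate 3 (0.19) or MPP4 replicate 3 (0.15). In mutants it lost it without MPP4 replicate 4 (0.19) or HSC replicate 1 (0.16), and in both genotypes with quantile normalization (0.14). The wild-type call was also lost with the compared groups alone (adjusted p = 0.105).

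**Figure D1:**
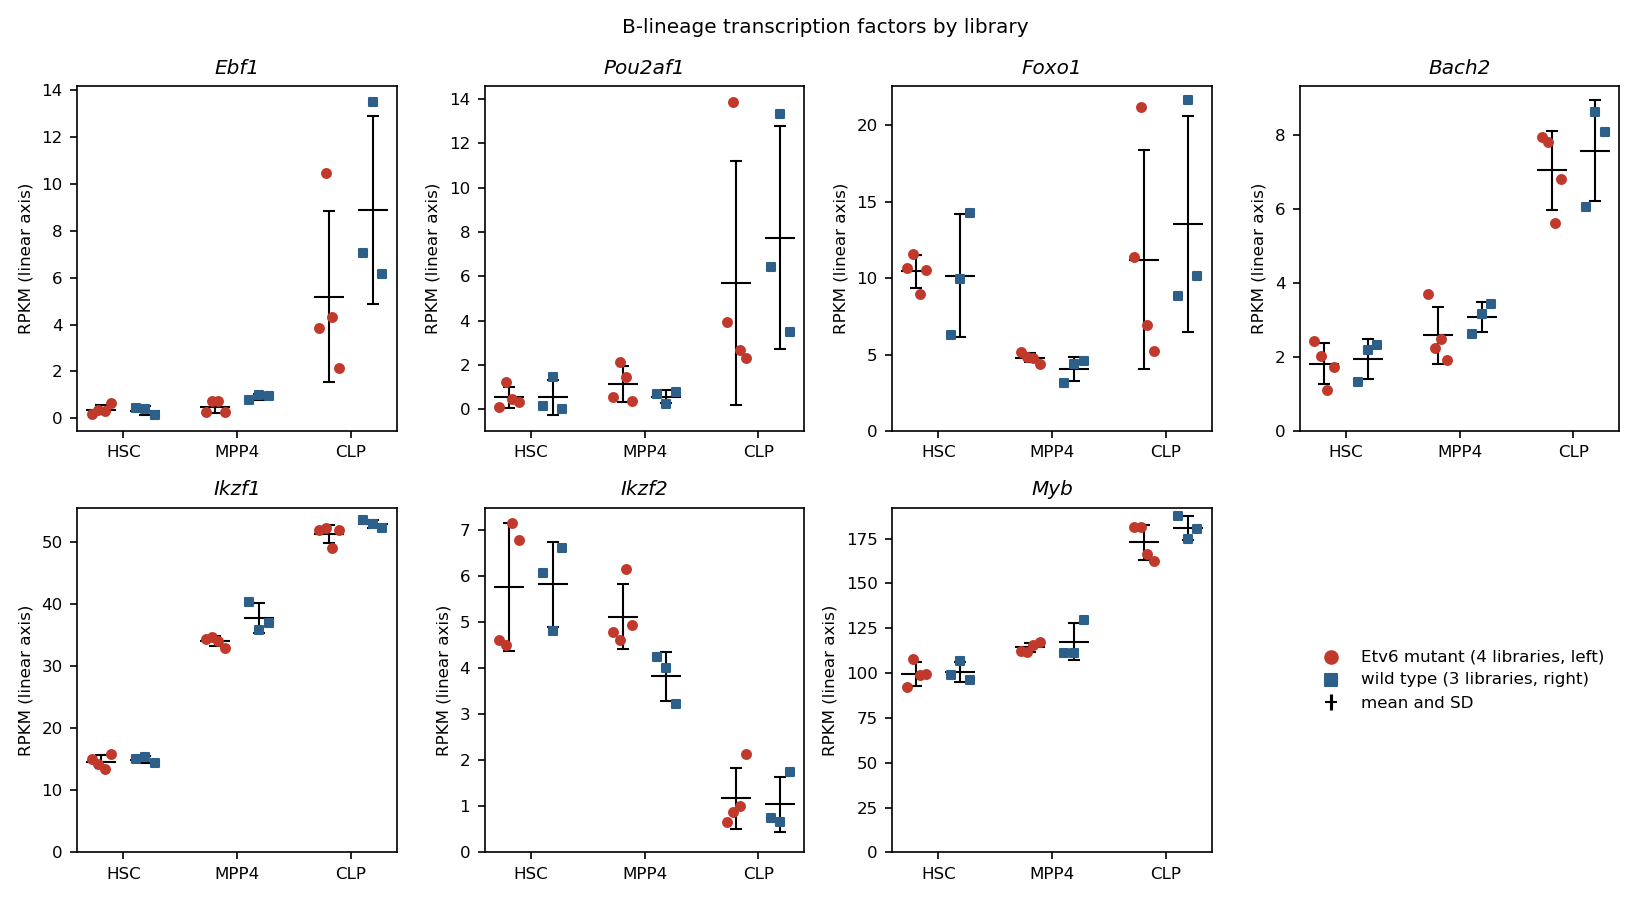
RPKM (linear axis) of the 7 factors in HSC, MPP4 and CLP, with mutant libraries as circles on the left of each pair and wild-type libraries as squares on the right; bars give the mean and SD. Ebf1, Pou2af1, Bach2, Ikzf1 and Myb are highest in CLP, Ikzf2 is lowest there, and Foxo1 is lowest in MPP4.

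Read across the set, the step into CLP moved all 7 members in both genotypes. In mutants 6 rose and 1 fell, while 24.3% of all genes tested passed in either direction, 7.86% upward and 16.4% downward. In wild type 6 rose and 1 fell, while 13.1% of all genes passed, 4.77% upward and 8.38% downward. The median change of the members was 0.90 in mutants and 1.06 in wild type, beside -0.06 and -0.05 over all genes. Groups of all 7 members did not overlap at this step, which held for 25.5% of all genes in mutants and 30% in wild type.

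At the HSC to MPP4 step, 3 of the 7 members passed in mutants and 3 in wild type, namely Ikzf1 and Myb upward and Foxo1 downward. Of all genes, 39.1% passed in mutants (16% upward, 23.1% downward) and 39.3% in wild type (16.1% upward, 23.3% downward), near the share among the members. Groups of 3 members did not overlap at this step in mutants and those of 6 did not in wild type, beside 37.6% and 51% of all genes. From HSC to CLP, 6 of 7 passed in mutants and 6 in wild type, all but Foxo1, beside 57.8% and 51.1% of all genes. In RPKM order, CLP led MPP4 and MPP4 led HSC for Ikzf1 and Myb, with each neighbour separated by the test. For Ebf1, Pou2af1 and Bach2, CLP led, and HSC and MPP4 were not separated by the main test. With the replicate block, Bach2 was separated in mutants (limma adjusted p = 0.0272) and in wild type (limma adjusted p = 0.0100). The MPP4 and HSC libraries of Ebf1, Pou2af1 and Bach2 overlapped in mutants. In wild type all MPP4 libraries lay above all HSC libraries for Ebf1 and Bach2. For Ikzf2, CLP was last, and HSC and MPP4 were not separated by the main test, though in wild type they were with the replicate block (limma adjusted p = 0.0489). Its MPP4 and HSC libraries overlapped in mutants, while in wild type all MPP4 libraries lay below all HSC libraries. In bulk RNA, fewer cells that express a gene and less RNA per cell cannot be told apart.

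**Figure D2:**
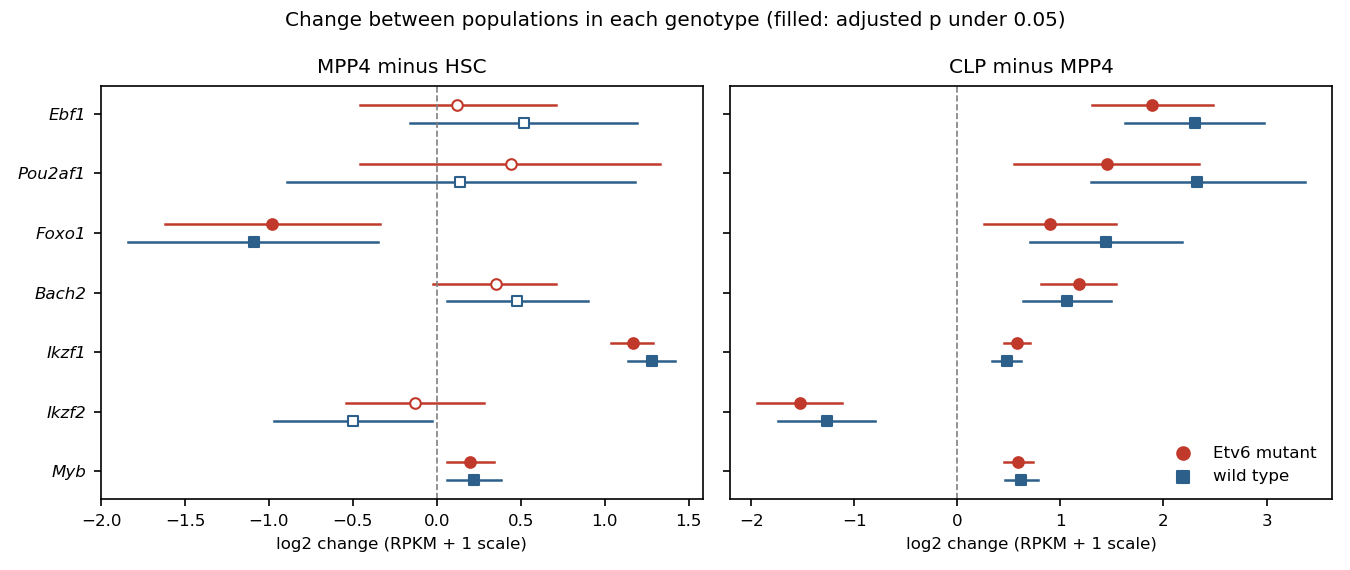
Log2 change of each factor (RPKM + 1 scale) from HSC to MPP4 on the left and from MPP4 to CLP on the right, with 95% intervals; mutants are circles, wild type squares, and filled symbols passed at an adjusted p under 0.05. On the right all symbols are filled, with Ikzf2 alone below 0; on the left Ikzf1, Myb and Foxo1 are filled.

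Between genotypes, 0 of the 7 members passed the limma test in any population. In HSC 0.0522% of all genes passed (6 genes, with 512 at an unadjusted p under 0.05), and 0 members had an unadjusted p under 0.05. In MPP4 0.217% of all genes passed (25 genes, with 936 at an unadjusted p under 0.05), and 1 member, Ikzf1, had an unadjusted p under 0.05. In CLP 0% of all genes passed (0 genes, with 507 at an unadjusted p under 0.05), and 1 member, Ebf1, had an unadjusted p under 0.05. The exact permutation test (two-sided) splits 7 libraries in 35 ways and cannot go below p = 0.0286, and 2 of its 21 tests, both in MPP4, reached that value (adjusted p = 0.300).

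Ebf1 in CLP had the largest of the 21 genotype differences on the log2(RPKM + 1) scale, at -0.77 with a 95% interval of -1.40 to -0.14 (limma adjusted p = 0.992). The ratio of the RPKM means was 0.58, and the genotypes overlapped, since mutant replicate 2 at 10.4 RPKM exceeded the wild-type values of 7.05 and 6.14 RPKM. The exact permutation test gave p = 0.229. Without wild-type CLP replicate 2 the difference was -0.46, and without mutant CLP replicate 2 it was -1.12 (adjusted p = 0.0955). Neutrophil markers (8 measured) summed to 239, 1648, 315 and 1968 RPKM in mutant CLP replicates 1 to 4, against 556, 500 and 310 RPKM in wild-type CLP, with Elane at 0 in at least 1 mutant library. The part of neutrophil RNA in the Ebf1 values was not tested.

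Pou2af1 in CLP differed by -0.51 (95% interval -1.48 to 0.45) and Foxo1 by -0.32 (-1.02 to 0.37). Bach2 and Myb in CLP differed by -0.09 (-0.48 to 0.30) and -0.07 (-0.21 to 0.08). In all, 6 of the 7 members had a negative value in CLP, where 48.7% of all genes did, and the members' median was -0.09 beside 0 over all genes. In HSC the median of the members was -0.01 and no interval excluded 0. Mutant and wild-type HSC overlapped for all 7 members, while 5.25% of all genes did not overlap there.

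In MPP4, 3 members had genotypes that did not overlap, where 10.1% of all genes did not. Ikzf1 had 32.8 to 34.7 RPKM in mutants, against 35.8 to 40.4 RPKM in wild type. That difference was -0.14 with a 95% interval of -0.28 to -0.01 (limma adjusted p = 0.566; exact permutation p = 0.0286). Ebf1 averaged 0.507 ± 0.269 RPKM in mutants and 0.906 ± 0.121 RPKM in wild type. Its log2 difference was -0.35 (-0.99 to 0.28, limma adjusted p = 0.857, exact permutation p = 0.114). The highest mutant value of Ebf1 was 0.740 RPKM and the lowest wild-type value 0.770 RPKM. Estimated Ebf1 reads were 25.4 to 92.5 in mutant and 54.9 to 102.5 in wild-type MPP4 libraries. Pou2af1, whose genotypes overlapped, averaged 1.12 RPKM in mutants and 0.570 RPKM in wild type, a ratio of 1.96 and a log2 difference of 0.37 (-0.60 to 1.34; limma adjusted p = 0.927). As ratios of means, this and the 0.56 of Ebf1 in MPP4 lay farther from 1 than the 0.58 of Ebf1 in CLP. Ikzf2 averaged 5.12 ± 0.701 RPKM in mutants and 3.82 ± 0.538 RPKM in wild type, a log2 difference of 0.34 (-0.10 to 0.78; limma adjusted p = 0.754; exact permutation p = 0.0286). In CLP the 1 member without overlap was Ikzf1, at 51.2 ± 1.51 RPKM in mutants and 52.9 ± 0.616 RPKM in wild type, where 4.12% of all genes did not overlap. That CLP difference was -0.05 (-0.18 to 0.09, limma adjusted p = 0.9998, exact permutation p = 0.0571). The nearest Ikzf1 values there were 52.2 RPKM in mutants and 52.3 RPKM in wild type.

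Summed marker lists also stood apart between genotypes in the same MPP4 libraries. These lists are not of other populations alone. The HSC list shares Kit and Ly6a with the MPP4 list, and the CLP list shares Flt3 and Dntt with it. HSC markers (7 measured, none at 0) summed to 286.4 to 297.6 RPKM in mutants and 223.0 to 246.5 RPKM in wild type. Erythroid markers (6 measured, none at 0) summed to 333.3 to 439.7 RPKM in mutants and 144.9 to 261.7 RPKM in wild type. The same erythroid sum was higher in HSC, at 833.9 to 972.0 RPKM in mutants and 781.0 to 913.3 RPKM in wild type. Of the 6 erythroid genes, 0 passed between genotypes in MPP4. CLP markers (5 measured, none at 0) summed to 883.3 to 1014.3 RPKM in mutants and 1153.6 to 1493.2 RPKM in wild type. Most of the CLP sum was Flt3 and Dntt. In mutant replicate 4, Il7r, Ly6d and Rag1 held 6.57, 7.82 and 0.377 of 897.8 RPKM. In wild-type replicate 3 they held 15.3, 32.5 and 3.05 of 1493.2 RPKM. Between genotypes Flt3 changed by 0 and Dntt by -0.74 (limma adjusted p = 0.153), and 0 of the 5 markers passed. In MPP4 these 3 sums had no overlap between genotypes. Nor did the sums of MPP4 markers, at 1209.6 to 1361.9 RPKM in mutants and 1503.8 to 1820.9 RPKM in wild type. Plasmacytoid dendritic cell markers did not overlap either (115.5 to 134.8 RPKM in mutants, 141.9 to 187.5 RPKM in wild type). The part of all these sums in the values of Ikzf1, Ebf1 and Ikzf2 was not tested.

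**Figure D3:**
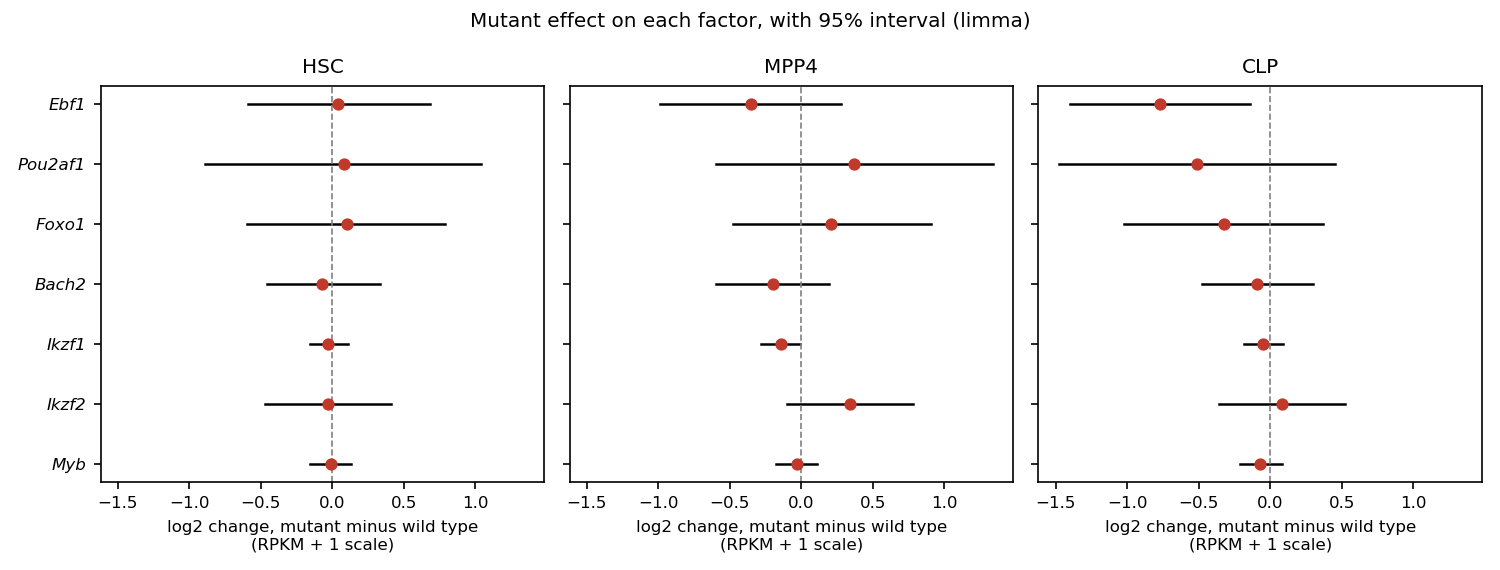
Log2 change of each factor, mutant minus wild type (RPKM + 1 scale), in HSC, MPP4 and CLP, as points with 95% intervals. The intervals of Ikzf1 in MPP4 (-0.28 to -0.01) and Ebf1 in CLP (-1.40 to -0.14) lie below 0, and those of the other members and populations include it.

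The mutant effect was also compared between populations, and 0 members passed for any of the 3 pairs, where 0% of all genes passed for MPP4 minus HSC and for CLP minus MPP4 and 0.0087% (1 gene) for CLP minus HSC. An unadjusted p under 0.05 was found for 0 members in each pair. The effect on Ebf1 in CLP differed from that in HSC by -0.81 (95% interval -1.71 to 0.08; limma adjusted p = 1.00). For Pou2af1 the effect in CLP differed from that in MPP4 by -0.88 (-2.25 to 0.49). Intervals of this width leave room for changes of over 1 log2 unit in the low, variable members. For Ikzf1 and Myb the intervals of the genotype differences stayed within 0.28 log2 units of 0 in each population.

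Within CLP, libraries numbered 2 were the highest of their genotype for Ebf1, Pou2af1 and Foxo1. Mutant replicate 2 had 10.4, 13.9 and 21.2 RPKM of these genes, and wild-type replicate 2 had 13.5, 13.3 and 21.7 RPKM. This held for 3 of the 7 members in CLP, 2 in HSC (Pou2af1 and Myb) and 0 in MPP4, beside 9.99%, 8.55% and 10.29% of all genes. Cd79a, which encodes a chain of the B-cell receptor complex, had 92.3 RPKM in mutant CLP replicate 2 and 16.0 to 32.3 RPKM in the other mutant CLP libraries. In wild type it had 115 RPKM in CLP replicate 2, against 52.3 and 38.3 RPKM in the others. Replicate 2 was the only male of each group, so sex and replicate number cannot be told apart. With the replicate 2 libraries left out, Ebf1 still rose into CLP in both genotypes, while Foxo1 into CLP was 0.56 in mutants (adjusted p = 0.206) and 1.12 in wild type (adjusted p = 0.118). Pou2af1 without them changed by 1.74 into CLP in wild type (adjusted p = 0.0879), while in mutants its rise was still called. The fall of Foxo1 into MPP4 was then -0.94 in mutants (adjusted p = 0.0631) and -1.13 in wild type (adjusted p = 0.0707).

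**Figure D4:**
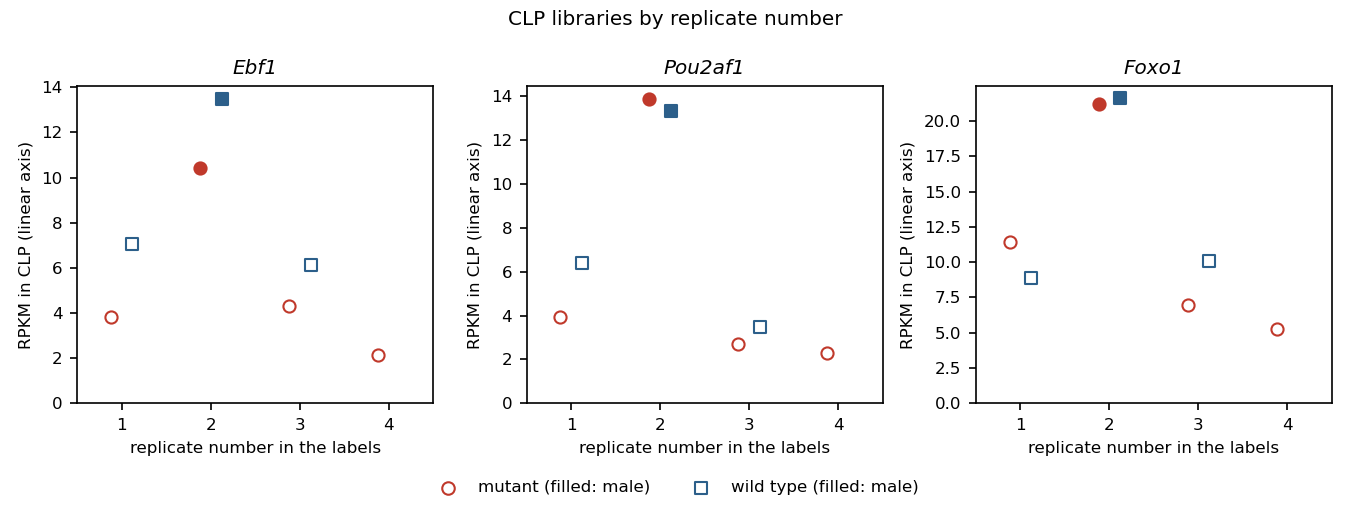
RPKM (linear axis) of Ebf1, Pou2af1 and Foxo1 in CLP by replicate number; circles are mutant and squares wild-type libraries, and filled symbols are male mice. In each panel the replicate 2 libraries stand highest of their genotype, as with Ebf1 at 10.4 RPKM in the mutant and 13.5 RPKM in the wild-type library.

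Genes that EBF1 and its partners are known to act on in early B cells were followed as a list of 29, of which 25 were tested. Into CLP, 16 rose and 1 fell in mutants, and 18 rose and 0 fell in wild type, where 24.3% of all genes passed in mutants and 13.1% in wild type. Rag1, a recombinase subunit, rose by 3.08 ± 0.35 in wild type (log2, SE), and Blnk, an adaptor of B-cell receptor signalling, by 3.04 ± 0.22. From HSC to MPP4, 11 rose and 2 fell in mutants, and 13 rose and 3 fell in wild type, beside 39.1% of all genes in mutants and 39.3% in wild type. Between genotypes the list held 0 changes in HSC and 0 in CLP, with a median of -0.27 in CLP beside 0 over all genes. In MPP4, 2 members were lower in mutants. Blnk had 8.58 to 11.7 RPKM in mutant MPP4, against 16.5 to 33.0 RPKM in wild-type MPP4 (-1.04 ± 0.21, adjusted p = 0.0413). Blk, which encodes a B-cell tyrosine kinase, averaged 1.39 ± 0.377 RPKM in mutant MPP4 and 4.57 ± 1.80 RPKM in wild-type MPP4 (SD; -1.18 ± 0.24, limma adjusted p = 0.0466). Both calls were lost with a pseudocount of 0.1 and without wild-type MPP4 replicate 3 (Blnk -0.74, Blk -1.05, both adjusted p = 0.430). Each was also lost without any one mutant MPP4 library, and Blk without wild-type MPP4 replicate 1. With the compared groups alone the adjusted p was 0.120 for Blnk and 0.116 for Blk, and with the replicate block it was 0.0557 for Blnk and 0.144 for Blk.

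Transcription factors that work beside the members formed a list of 24, with 23 tested. Into CLP, 8 rose and 4 fell in mutants, and 8 rose and 4 fell in wild type, beside 24.3% of all genes in mutants and 13.1% in wild type. In wild type the ETS factor Spib rose by 2.39 ± 0.33 and Ets1 by 1.02 ± 0.15, while Spi1, which encodes the myeloid and lymphoid factor PU.1, fell by 0.58 ± 0.09 (log2, SE). From HSC to MPP4, 15 rose and 3 fell in mutants, and 13 rose and 3 fell in wild type, beside 39.1% and 39.3% of all genes. Between genotypes 1 gene passed, Irf8 in MPP4, an interferon regulatory factor used by B cells and dendritic cells, at -0.79 ± 0.15 (adjusted p = 0.0364). That call was lost with a pseudocount of 0.1 (-0.81), without mutant MPP4 replicate 1 (-0.75) or 2 (-0.69) and also without wild-type MPP4 replicate 1 (-0.77), 2 (-0.83) or 3 (-0.76). It was lost as well with the compared groups alone (adjusted p = 0.0667) and with the replicate block (adjusted p = 0.0806). Markers of plasmacytoid dendritic cells (5 measured, none at 0 in MPP4) summed to 115.5 to 134.8 RPKM in mutant MPP4 and 141.9 to 187.5 RPKM in wild-type MPP4, and their part in the Irf8 value was not tested.

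Relatives of the members formed a list of 17, with 10 tested, and 0 of them passed between genotypes in any population. Into CLP, 0 rose and 2 fell in mutants, and 1 rose and 1 fell in wild type, near the shares over all genes of 24.3% in mutants and 13.1% in wild type. In wild type these were Tcf7, a relative of Lef1 used by T cells, at 1.26 ± 0.35 (log2, SE; adjusted p = 0.0193), and Foxo3, a relative of Foxo1, at -0.52 ± 0.15 (adjusted p = 0.0193). The Tcf7 call was lost without CLP replicate 2 (1.16) or 3 (1.21) and without MPP4 replicate 1 (1.29) or 2 (adjusted p = 0.0687). Foxo3 lost its call without CLP replicate 1 (-0.48) or 3 (-0.51) and without MPP4 replicate 1 (-0.51) or 3 (-0.47), as well as with quantile normalization (-0.36) and with the compared groups alone (adjusted p = 0.0534). From HSC to MPP4, 2 of the 10 relatives rose and 1 fell in mutants, and 2 rose and 2 fell in wild type. Over all genes 39.1% passed in mutants and 39.3% in wild type, so the wild-type count was near that share. In wild type the Ikaros relative Ikzf4 fell by 1.65 ± 0.24 and Bach1 fell by 0.82 ± 0.15. At the same step Mybl2 rose by 1.03 ± 0.21 and the octamer-binding factor gene Pou2f2 by 1.03 ± 0.23. Into CLP, where Bach2 and Myb rose, Bach1 changed by -0.21 (adjusted p = 0.426) and Mybl2 by 0.14 (adjusted p = 0.738) in wild type.

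Genes whose levels ran most alike each member were ranked by Pearson's r of log2(RPKM + 1) over the 21 libraries, as a description. The libraries share the 3 populations, which set most of each value. Ebf1 ran with Rag1 (0.973), Vpreb2 (0.973) and Gfra2 (0.971), and Pou2af1 with Cd79a (0.958), Vpreb2 (0.937) and Vpreb3 (0.935). Vpreb2 and Vpreb3 encode parts or relatives of the surrogate light chain of the pre-B-cell receptor; Vpreb2 is nearly identical to Vpreb1, so its reads are uncertain. Ikzf1 ran with Lck (0.994), Chdh (0.992) and Slc9a7 (0.990), and Myb with Gpr25 (0.979), Ly6d (0.974) and Blk (0.973). The nearest to Bach2 were Mef2d (0.972), Bcr (0.969) and Ly6d (0.963), and to Ikzf2 Tnip3 (0.978), Il18 (0.974) and Il15 (0.971). Foxo1 had the lowest values of this kind, with Pde2a (0.908), Zfp36l1 (0.842) and Fam189b (0.821). Among the members, Ebf1 and Pou2af1 reached 0.93, Ikzf2 and Myb -0.95, and Foxo1 and Ikzf1 -0.11.

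The levels of 4 members carry a further limit, because the library kit does not mark strand. Annotated antisense genes share 674 exon bases with Foxo1, 559 with Myb, 537 with Bach2 and 144 with Ikzf2, and reads there cannot be told apart.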

How the data were processed

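RNA levels were deposited by the authors as RPKM values in 1 table of 11628 genes and 21 libraries. STAR and mm10 are named in the submitters' processing notes; for the STAR version, counting tool, annotation and strand setting the sources used here give nothing. Per the labels' protocols, polyadenylated RNA of sorted cells was amplified with a SMART-seq kit and tagmented with NexteraXT. RPKM depends on the total mapped reads, so abundant genes can shift the rest, and amplification from little RNA makes rare transcripts noisy. RPKM summed to 337818 to 376135 per library, and 2 to 90 genes stood at 0. Depth came from read steps in 666 low values of 66 genes, 85.7% of which lay within 0.1 reads of a whole count of at most 12 reads. It needed fitted gene lengths, so no counts were recovered for all genes and no count test was run.

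A spreadsheet had turned 16 symbols into dates, which were restored through Entrez identifiers, 11619 of which matched RefSeq. Genes with at least 1 RPKM in at least 3 libraries were kept, 11496 in all. The scale was log2(RPKM + 1), on which changes of low genes come out too small. A limma model (version 3.58.1, in R 4.3.3) took a mean for each of the 6 groups and a variance trend, and p-values were adjusted by Benjamini-Hochberg over all kept genes within a comparison, with a threshold of 0.05. Intervals are 95% and cover the spread between these libraries. Mutants were compared with wild type within a population, these effects with one another, and populations within each genotype; CLP minus HSC was added after the data were seen. A two-sided exact permutation test was run for each member and population.

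The members, the lists and the motifs were chosen with earlier results of these data known, and no p-value was adjusted over a list alone. Named beside the 7 members are, by rule, the 3 genes most alike each of them and, per list and comparison, up to 5 called genes with the smallest adjusted p. Cd79a was chosen after its values were seen. Markers of HSC, MPP4, CLP, neutrophils, erythroid cells, plasmacytoid dendritic cells, T and NK cells and plasma cells were summed; the result of a further marker list is not reported here.

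The labels give 4 mutant and 3 wild-type mice but not which library came from which mouse, so p-values measure the spread between these libraries. Libraries of the same number were compared by the correlation, over genes, of how far each lay from its group mean. All exceeded 0.1 between HSC and MPP4 of mutants (0.121 to 0.330), between HSC and CLP of mutants (0.103 to 0.481) and of wild type (0.131 to 0.340), and between MPP4 and CLP of wild type (0.217 to 0.271). There the numbers were taken to pair the libraries, as an assumption. Such values cannot show a shared mouse, since same-numbered libraries of different genotypes reached 0.433 in HSC and 0.453 in CLP. Mutant libraries numbered 4 are labelled 12 weeks in HSC and MPP4 but 10 weeks in CLP, so this number need not mark 1 mouse; between HSC and CLP it gave the lowest value, 0.103, below the 0.341 of HSC replicate 3 with CLP replicate 4. Alternatives were another pseudocount, no filter, quantile and median-ratio scaling, the compared groups alone, sex and age terms, the replicate block and each library left out. Between populations the block held mutant number 4 as 1 mouse, in CLP too.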

Additional observations from a re-analysis of the deposited data

Results flagged for a closer look

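In mutant CLP, 2 values stood apart by Dixon's gap test at its 95% critical value for groups of 4 libraries; chance flags about 1 in 20 groups, and 21 groups were tested. Pou2af1 in mutant CLP replicate 2, at 13.9 RPKM against 2.31 to 3.93 RPKM in the other 3, had a gap of 0.86 of the range. Ikzf1 in mutant CLP replicate 3, at 48.98 RPKM against 51.9 to 52.2 RPKM in the other 3, had a gap of 0.904 of the range. Wild-type groups of 3 libraries are too small for this test.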

How the results depend on the processing

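The 7 members had 0 calls between genotypes in each population under all alternatives run, and none of the named changes reversed its direction past the threshold. Over the members and named list genes, 1763 values stayed on their side of the threshold, 75 lost a call and 8 gained one. Genes called in HSC between genotypes numbered 6, against 12 with quantile normalization, 0 with the compared groups alone, 3 without the replicate 2 libraries, and 2 to 7 with single libraries left out. In MPP4 there were 25, against 0 with a pseudocount of 0.1, 3 with the compared groups alone, 48 with sex and age terms, 7 without the replicate 2 libraries and 7 to 19 with single libraries left out. In CLP there were 0, and 0 to 5 with single libraries left out, 5 of them without mutant CLP replicate 2. In wild type, CLP minus MPP4 had 1511 calls and 820 without the replicate 2 libraries. Median-ratio scaling moved the median of all genes by up to 0.11 log2 units (mutant CLP minus HSC).

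Between genotypes the numbers did not pair the libraries (same-numbered correlations -0.155 to 0.433 in HSC, 0.018 to 0.214 in MPP4 and 0.036 to 0.453 in CLP), and 2 of 6, 4 of 6 and 2 of 6 libraries correlated best with their own number. The replicate block gave 12 called genes in MPP4 and 1 in CLP. Wild-type HSC and MPP4 (0.094 to 0.330, 6 of 6 best with their own number) and mutant MPP4 and CLP (0.096 to 0.379, 5 of 8) did not all exceed 0.1. Yet in wild type both HSC and MPP4 were taken to pair with CLP. In mutants both MPP4 and CLP were taken to pair with HSC. The numbers may therefore pair these libraries too. With the replicate block, 5 members passed in wild-type MPP4 minus HSC in place of 3, as Bach2 (0.48) and Ikzf2 (-0.50) were added. Where all same-numbered values exceeded 0.1, the block changed no member's call other than that of Bach2 in mutants, given above. With single libraries left out, 1 to 3 members passed in wild-type MPP4 minus HSC, 6 to 7 in wild-type CLP minus MPP4 and 5 to 7 in mutant CLP minus MPP4. Estimated reads of Pou2af1 in HSC were 2.1 to 33.6 in mutants and 0 to 29.7 in wild type, so changes there are limited by depth.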

Other observations

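Markers of T, NK and innate lymphoid cells (2 of 7 measured, Gata3 and Klrb1c) were highest in HSC, with 11.5 to 18.2 RPKM in mutants and 10.6 to 18.1 RPKM in wild type, against 1.9 to 3.2 RPKM in mutant CLP and 2.1 to 5.0 RPKM in wild-type CLP. Most of the HSC sum was Gata3, at 8.88 to 10.5 RPKM in mutants and 8.99 to 12.6 RPKM in wild type. Plasma cell markers (2 of 4 measured) summed to 120.6 to 137.1 RPKM in mutant CLP and 125.9 to 178.8 RPKM in wild-type CLP. MPP4 markers (5 measured) summed to 1209.6 to 1361.9 RPKM in mutant MPP4 and 1503.8 to 1820.9 RPKM in wild-type MPP4. Of these 3 lists, 0 genes passed between genotypes in any population by limma. Of the HSC and plasmacytoid dendritic cell markers, 1 gene each passed in MPP4: Hlf was higher in mutants (0.98, adjusted p = 0.0364) and Cox6a2 lower (-1.67, adjusted p = 0.00150). With a pseudocount of 0.1 neither passed (Hlf adjusted p = 0.207, Cox6a2 adjusted p = 0.180), and Hlf lost its call in 9 of 15 alternatives and Cox6a2 in 2 of 15.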
